A study of Rattus norvegicus with 8 samples.

Results

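Respiratory chain and ATP synthase genes were examined in dorsal root ganglia, which hold the cell bodies of sensory neurons, of Sprague Dawley rats with a tied spinal nerve (the Chung model of neuropathic pain). The genes were taken by symbol: those starting with Nduf, with Sdh followed by a to d, with Uqcr, with Cox4 to Cox8 or with Atp5, together with Cycs, Cyct and Cyc1. This gave 80 of the 10771 gene symbols on the array, in 99 spots. Of the 80 genes, 74 code for subunits of the complexes or for cytochrome c, and these 74 are called the subunit genes here. Another 2 code for assembly factors of complex I, and 4 were caught by their symbol alone and are given apart at the end. A gene with several probes took the value of its brightest probe.

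The study had 2 groups of 4 samples, all from Sprague Dawley rats, with ganglia taken 7 days after the operation and each sample pooled from 2 animals. The ligation samples came from ganglia with a tied spinal nerve and are titled ipsilateral. The control samples are titled contralateral but described as coming from sham-operated rats, so side and operation cannot be told apart in any comparison. Every sample was labelled with Cy5 on an array of its own, against a common Cy3 reference pooled from control ganglia, with no dye swap. Each value is the log2 of the sample's intensity over that of the reference, and a change is the mean of the 4 ligation arrays minus the mean of the 4 control arrays. Changes were tested with limma over all 22379 probes that had enough values, two-sided, and passed where the p adjusted by Benjamini and Hochberg was under 0.05.

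The respiratory chain in the inner mitochondrial membrane passes electrons from NADH through complex I and from succinate through complex II to coenzyme Q. They go on through complex III and cytochrome c to oxygen at complex IV. Complexes I, III and IV pump protons out of the matrix, and ATP synthase, also called complex V, makes ATP as the protons flow back. Sensory neurons, with their long axons and constant ion pumping, are known for a high demand for this ATP. Most subunits are encoded in the nucleus, while a few catalytic ones of complexes I, III, IV and V are encoded in mitochondrial DNA. None of the 13 mitochondrially encoded genes was found by name on this array, so every value here is of a nuclear gene.

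Subunit genes were bright on these arrays, 55 of the 74 lying in the brightest 25% of genes, and their median standard error was 0.043, against 0.058 over all genes. Intensity has no length or copy scale here, so levels of different genes are not compared. Intensities stand with 2 decimals, which makes the ratios of dim probes coarse. In most of the array channels bright spots crowded at a single intensity. On at least 1 array 13 subunit genes lay at or above this pile-up. Its height was not the same everywhere. In the sample channel it began at 22.99 to 27.28 on control arrays 1 to 3 and at 17.72 to 21.18 on ligation arrays. In the reference channel it began at 19.81 to 21.56 on ligation arrays and was not found on control arrays 1 to 3. A change measured there can be understated or overstated. A further limit is that 6 subunit genes lacked a value on some arrays, and Cox6c of complex IV and Atp5e of ATP synthase had too few values to be tested.

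Most subunit genes were lower after ligation, by small amounts. Of the 72 tested, 62 fell, 1 rose and 9 did not pass. Over all probes 58.6% passed in either direction, over all 10699 genes tested 36.0% fell and 30.2% rose, and among the brightest 25% of genes 45.9% fell and 32.1% rose. The median log2 change of the subunit genes was -0.45, or 1.36-fold lower, with a range from -0.83 to 0.40, while the median over all genes was -0.05. A fall of at least 1.5-fold was found for 17 subunit genes and a change of at least 2-fold for 0. The shares of all genes past these fold cuts were not counted, so the 17 cannot be called many or few. Over all genes the log2 changes had an SD of 0.71.

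The falls were alike on the 4 ligation arrays. The median log2 ratio over the subunit genes was -0.07, -0.03, -0.10 and -0.07 on control arrays 1 to 4. It was -0.51, -0.53, -0.54 and -0.52 on ligation arrays 1 to 4. The ligation medians thus differed by 0.014 (SD, n = 4) and lay well apart from the control medians. Of the 68 subunit genes with a value on all 8 arrays, 60 had every ligation array below every control array, against 33.8% of all genes with 8 values. These counts depend on taking the deposited ratios without rescaling: when all arrays were forced to 1 spread of ratios by quantile normalization, 11 subunit genes fell, 4 rose and the median change was -0.07, with Ndufb11, Cycs, Cox7a2 and Cox6b1 slightly above 0 and not passing. Control arrays had the narrower spread of ratios (SD over spots 0.184 to 0.226, against 0.589 to 0.632 for ligation), so that setting widens the control ratios. The median of the subunit genes then stood at -0.24 in control and -0.32 in ligation. Under that setting 17.6% of all genes fell, with a median of -0.031, so the 15.3% of tested subunit genes that fell was near that share.

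**Figure D1:**
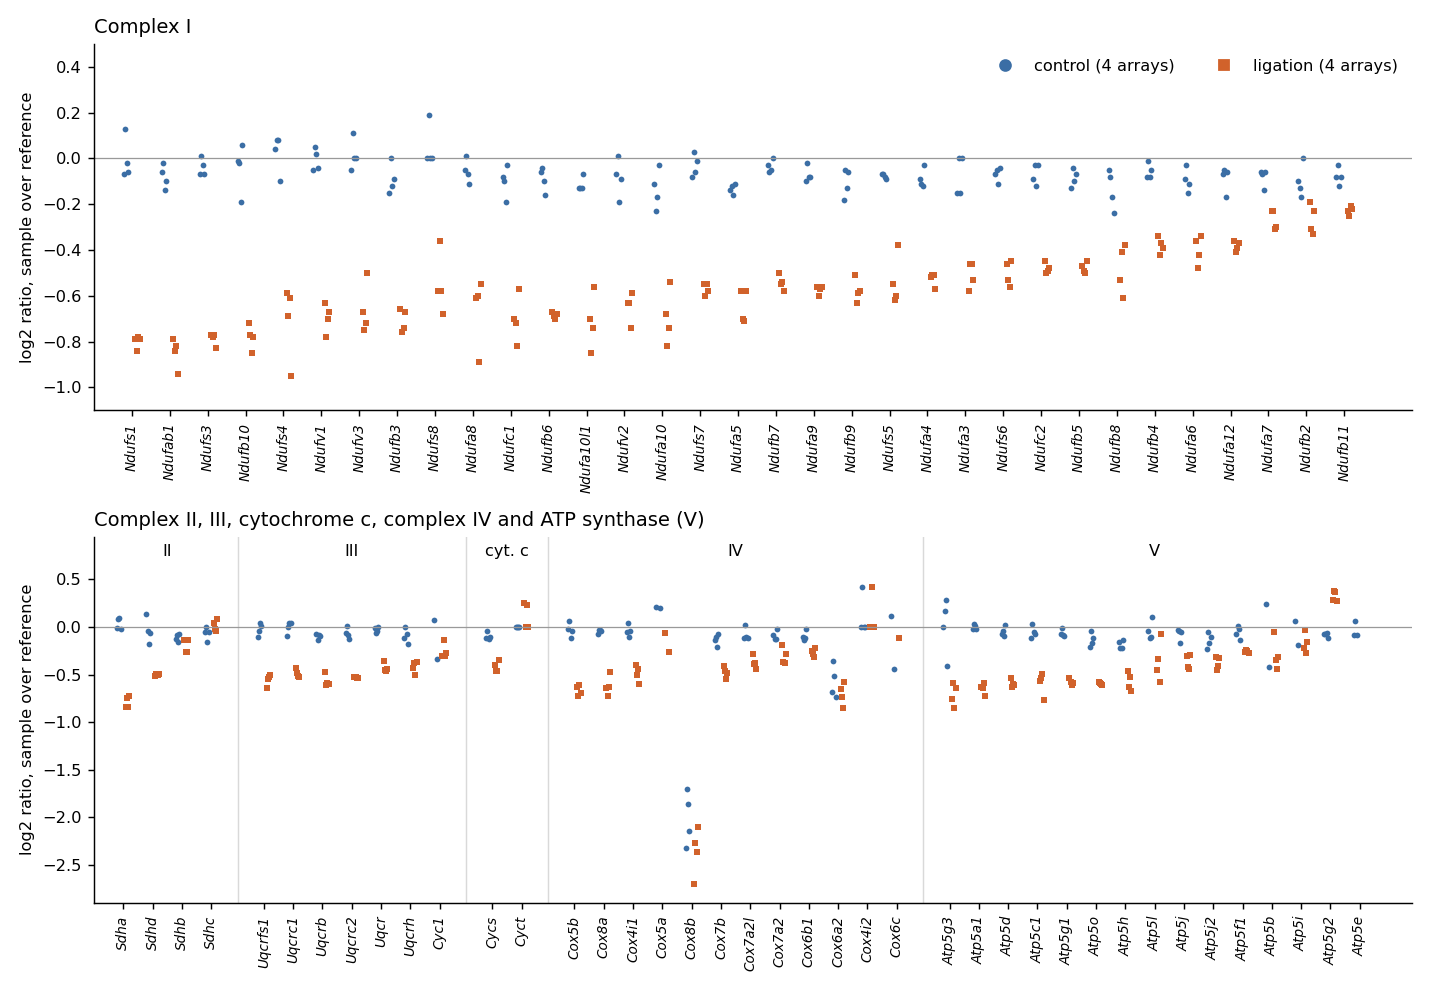
Log2 ratio of sample over reference for the subunit genes reported by name, 1 point per array (blue circles, control, and orange squares, ligation), ordered within each complex by the size of the change. In complex I the orange points lie below the blue points for every gene drawn, and in the lower panel Atp5g2 is the gene whose ligation arrays lie above its control arrays while Cox8b lies far below 0 in both groups.

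The subunit genes were also set against genes of like brightness. All genes were ordered by mean intensity and divided into 20 bins of equal size, and each subunit gene was set beside the median change of its bin. The median of these bin values was -0.10 over the tested subunit genes. The change of 66 of the 72 lay below that of their bin, and the median difference between gene and bin was -0.34 on the log2 scale. Genes within a bin went both ways, and a bin median does not say how far single genes moved. The 60 tested genes with no array in the pile-up had a median change of -0.45, with 53 falling, and the 12 tested genes with an array in it had a median of -0.35, with 9 falling.

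**Figure D2:**
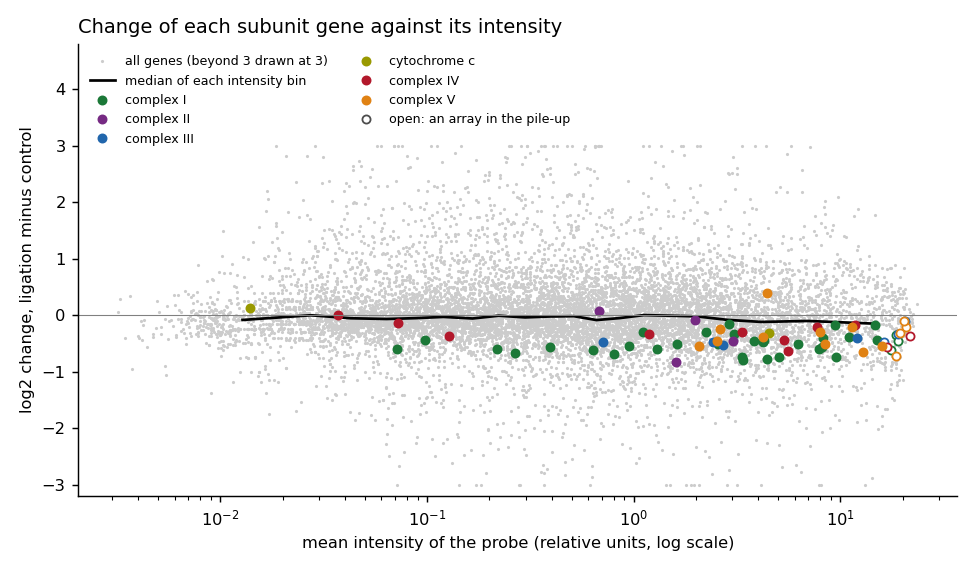
Log2 change of each tested subunit gene (coloured by complex, open where an array lay in the pile-up) against the mean intensity of its probe on a log axis, with all genes in grey and the median of each of the 20 intensity bins as a black line. Most coloured points lie below the line, though Cyct and Cox4i2 at the dim end lie above it, and the open points at the right lie nearer to it.

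Complex I, the NADH dehydrogenase, fell in all 34 measured subunit genes, and in each of them the 4 ligation arrays lay below the 4 control arrays. The median change was -0.51, or 1.42-fold lower, and 13 of the 34 fell by at least 1.5-fold, a cut not counted over all genes. The 7 core genes, whose products carry the flavin and the iron-sulfur clusters from NADH towards coenzyme Q, had a median of -0.60, and the 27 accessory genes a median of -0.48. Counted among the latter is Ndufa4, which was named for complex I but is now placed in complex IV, and which fell by 0.44 on the log2 scale.

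Ndufs3, a core subunit of the arm that reaches into the matrix (g3226065 in the table), had the smallest adjusted p of the subunit genes. Its log2 ratios were -0.07, 0.01, -0.03 and -0.07 on the control arrays and -0.77, -0.78, -0.77 and -0.83 on the ligation arrays. The groups lay far apart compared with their spread, and the change was -0.74 ± 0.026 (SE, n = 4 per group, limma adjusted p = 9.37e-07), or 1.67-fold lower. A second probe of Ndufs3, at an intensity of 0.0433, gave a ratio of exactly 1 on every array and did not pass.

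Ndufs1, the largest subunit of complex I, which holds iron-sulfur clusters (g3711402), fell most in this complex. It stood at -0.07, 0.13, -0.02 and -0.06 in control and at -0.79, -0.84, -0.78 and -0.79 in ligation, a change of -0.79 ± 0.047 (adjusted p = 7.38e-06). Of its 4 probes, 3 fell, by 0.76 to 0.80 on the log2 scale, and the dimmest, at an intensity of 0.0796, did not pass (0.03, adjusted p = 0.709). Ndufv1, which binds NADH and the flavin (g3708421), went from -0.05, 0.05, 0.02 and -0.04 to -0.63, -0.78, -0.70 and -0.67, with a change of -0.69 ± 0.04. For Ndufv1, too, every ligation array lay below every control array. Among core genes with smaller falls, Ndufs7 fell by 0.54, Ndufv2 fell by 0.56 and Ndufs8 fell by 0.60 on the log2 scale, Ndufs8 on a dim probe (intensity 0.0717).

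Among the accessory genes of complex I, Ndufab1, which is also the acyl carrier protein of mitochondrial fatty acid synthesis, fell most (-0.77 ± 0.042, adjusted p = 5.38e-06). Ndufa9 (-0.50 ± 0.025, adjusted p = 3.42e-06), a subunit of the matrix arm, and Ndufb6 (-0.60 ± 0.03, adjusted p = 3.64e-06), a subunit of the membrane arm, had the smallest adjusted p. Ndufs4, known from mutations that cause Leigh syndrome in humans, fell by 0.73 on the log2 scale on its brightest probe (intensity 3.32). The ligation arrays of that probe were at -0.59, -0.69, -0.61 and -0.95. A second probe of Ndufs4, at an intensity of 2.06, fell much less (-0.27, limma adjusted p = 9.13e-05), so the size of the fall of this gene is uncertain. The falls were not of 1 size: Ndufb11, of the membrane arm, changed least, from -0.08, -0.03, -0.12 and -0.08 to -0.23, -0.25, -0.21 and -0.22 (-0.15 ± 0.024, adjusted p = 0.00127). Ndufb2 and Ndufa7 were close to it, at -0.17 and -0.18, and Ndufb2 no longer passed without ligation replicate 2 or 3. These small falls lay near the median changes of their intensity bins, -0.08 for Ndufb11, -0.15 for Ndufb2 and -0.10 for Ndufa7. Ndufa10 and its near-identical copy Ndufa10l1 fell by 0.56 and 0.60 on the log2 scale, and since their transcripts may share signal they are not taken as separate measurements. Ndufa9 and Ndufb4 each had a dim second probe, at intensities of 0.0176 and 0.0127, that did not pass.

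Complex II, succinate dehydrogenase, is the enzyme shared with the citric acid cycle, and its 4 genes did not change as a block. Sdha, the flavoprotein that oxidises succinate (g4131482), had the largest fall of all subunit genes. It stood at -0.01, 0.08, 0.09 and -0.02 in control and at -0.84, -0.75, -0.84 and -0.73 in ligation, a change of -0.83 ± 0.042 (adjusted p = 3.76e-06), or 1.77-fold lower. All 3 probes of Sdha passed as lower, with changes of -0.83, -0.70 and -0.42 in order of falling intensity. Sdhd, a membrane anchor subunit (g4131387), went from 0.14, -0.04, -0.18 and -0.06 to -0.51, -0.49, -0.50 and -0.49, a change of -0.46 ± 0.063 (adjusted p = 4.89e-04).

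The other genes of complex II did not pass. Sdhb, the iron-sulfur subunit (g4134738), had control values of -0.13, -0.08, -0.16 and -0.07 and ligation values of -0.14, -0.26, -0.26 and -0.14, with a change of -0.09 (95% interval -0.19 to 0.01, adjusted p = 0.105). Sdhc, the other membrane anchor (g3223649), had control values of -0.05, 0.00, -0.16 and -0.05 and ligation values of 0.04, -0.02, -0.04 and 0.08, with a change of 0.08 (95% interval -0.02 to 0.19, adjusted p = 0.151). In both genes the groups overlapped, and the intervals leave out falls of the size seen in Sdha and Sdhd. Under loess normalization within arrays Sdhc passed as higher, and under quantile normalization Sdhb did (0.22).

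**Figure D3:**
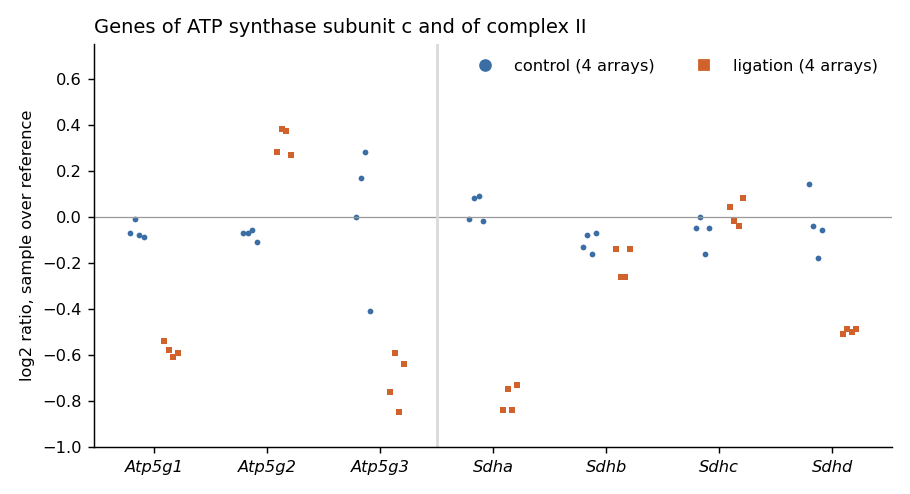
Log2 ratio of sample over reference on each array (blue circles, 4 control arrays, and orange squares, 4 ligation arrays) for the 3 genes of ATP synthase subunit c and the 4 genes of complex II. Ligation lies above control for Atp5g2 and below it for Atp5g1, Atp5g3, Sdha and Sdhd, while the groups overlap for Sdhb and Sdhc.

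Complex III, which passes electrons from coenzyme Q to cytochrome c, fell in 6 of 7 genes, with a median change of -0.47. Uqcrfs1, the Rieske iron-sulfur protein (M24542), fell most: its ratios were -0.10, -0.04, 0.04 and 0.01 in control and -0.64, -0.55, -0.52 and -0.50 in ligation (-0.53 ± 0.042, adjusted p = 2.92e-05). Both core proteins of the matrix side fell, Uqcrc1 by 0.48 and Uqcrc2 by 0.47 on the log2 scale, and the 4 ligation values of Uqcrc2 lay within -0.54 to -0.52. The small subunits Uqcrb (-0.47 ± 0.036), Uqcr (-0.40 ± 0.028, now named Uqcr11) and Uqcrh (-0.33 ± 0.046) fell as well, Uqcrh with 4 arrays and Uqcrb with 1 array in the pile-up.

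Cyc1, cytochrome c1 of complex III, did not pass, and its data were poor. Its brightest probe (g2862429) lay in the pile-up on 5 arrays and had no value on control arrays 1 and 3, and the remaining values were 0.07 and -0.34 in control and -0.30, -0.14, -0.30 and -0.27 in ligation (-0.11, 95% interval -0.43 to 0.20, adjusted p = 0.463). Its second probe was at an intensity of 0.0283 and did not pass either. The interval holds falls as large as those of Uqcrh and Uqcr as well as no change. In the sample channel alone Cyc1 passed as lower (-0.65, adjusted p = 0.00279). That channel had its pile-up lower on the ligation arrays than on control arrays 1 to 3. How far the call of Cyc1 follows this difference was not tested.

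Cycs, the cytochrome c of body tissues, which shuttles electrons and also takes part in apoptosis (NM_012839), fell. Its ratios were -0.11, -0.04, -0.13 and -0.10 in control and -0.40, -0.46, -0.46 and -0.35 in ligation, with a change of -0.32 ± 0.034 (adjusted p = 1.31e-04). Cyct, the testis form of cytochrome c (NM_012840), was at an intensity of 0.0139, with ratios of exactly 1 on 6 of the 8 arrays, and did not pass (adjusted p = 0.16).

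Complex IV, cytochrome c oxidase, fell in 8 of 11 tested genes, with a median change of -0.34. Cox5b (NM_053586), a subunit on the matrix side, fell most, from -0.02, 0.06, -0.12 and -0.04 to -0.63, -0.72, -0.61 and -0.69 (-0.63 ± 0.045, adjusted p = 1.83e-05). Cox8a (NM_134345) changed by -0.57 ± 0.052 with 3 arrays in the pile-up, and Cox4i1 (NM_017202), the ubiquitous form of the subunit through which ATP acts on the enzyme, by -0.44 ± 0.05. Cox7b and Cox7a2l changed by -0.34 and -0.29; Cox7a2l is known for joining complexes III and IV into supercomplexes. Smaller falls were measured in Cox7a2 (-0.21 ± 0.049, adjusted p = 0.00713) and Cox6b1 (-0.17 ± 0.035, adjusted p = 0.00424), which lay near the median changes of their intensity bins, -0.10 and -0.15. Under loess within arrays Cox6b1 was at -0.08 and did not pass (adjusted p = 0.119). Cox5a passed as lower (-0.36, adjusted p = 0.0441) on 2 control and 2 ligation arrays only. Without any single one of those arrays it had too few values to be tested. It was tested but did not pass without control replicate 3, or without ligation replicate 2 or 4.

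The tissue forms of complex IV subunits that are known from heart and skeletal muscle stood apart in another way: they were low against the reference in both groups. Cox8b (NM_012786), the muscle counterpart of Cox8a, stood at -2.32, -1.70, -1.86 and -2.14 in control and at -2.70, -2.27, -2.37 and -2.10 in ligation. Its sample intensities were only 0.04 to 0.08, and their rounding to 2 decimals leaves a change anywhere from -0.66 to -0.05. Its change between the groups was -0.36 ± 0.173 and did not pass (adjusted p = 0.12). It passed as lower with 0.05 added to both intensities (-0.25, adjusted p = 0.0269) and as higher under quantile normalization (0.91). Cox6a2 (NM_012812) stood at -0.68, -0.36, -0.51 and -0.74 in control and at -0.65, -0.74, -0.85 and -0.58 in ligation, with a change that did not pass (-0.13, adjusted p = 0.271). It passed as lower with 0.05 added to both intensities (-0.12, adjusted p = 0.0236) and as higher under quantile normalization (0.61). The sample intensities of Cox6a2 were 0.03 to 0.08, with a rounding range of the change from -0.56 to 0.30. For Cox8b and Cox6a2 the added 0.05 was about as large as the sample intensities. Both genes passed the test of the control arrays against the reference, with adjusted p of 0.00056 and 0.0149. They were the 2 of the 72 tested subunit genes that did, and over all genes that test called 0.776% lower and 0.15% higher.

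Skeletal muscle markers were low against the reference too. Of 11 measured, 10 passed as lower in control than in the reference, with a median of -2.58; the exception was Pvalb (-0.27), which sensory neurons are also known to express. The summed intensity of the 11 markers was 7.76 to 14.5 in the control samples and 4.26 to 5.18 in the ligation samples, and none was at 0. Most of that sum was Pvalb, which fell by 1.99 on the log2 scale. Without Pvalb it was 0.99 to 1.89 in control and 1.18 to 1.48 in ligation, and of those 10 markers 1 fell and 1 rose. Their part in the values of Cox8b and Cox6a2 was not tested. Cox4i2, the lung form of Cox4i1, was at an intensity of 0.0369, with ratios of exactly 1 on 6 of 8 arrays, so a small change was not detectable at this intensity.

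**Figure D4:**
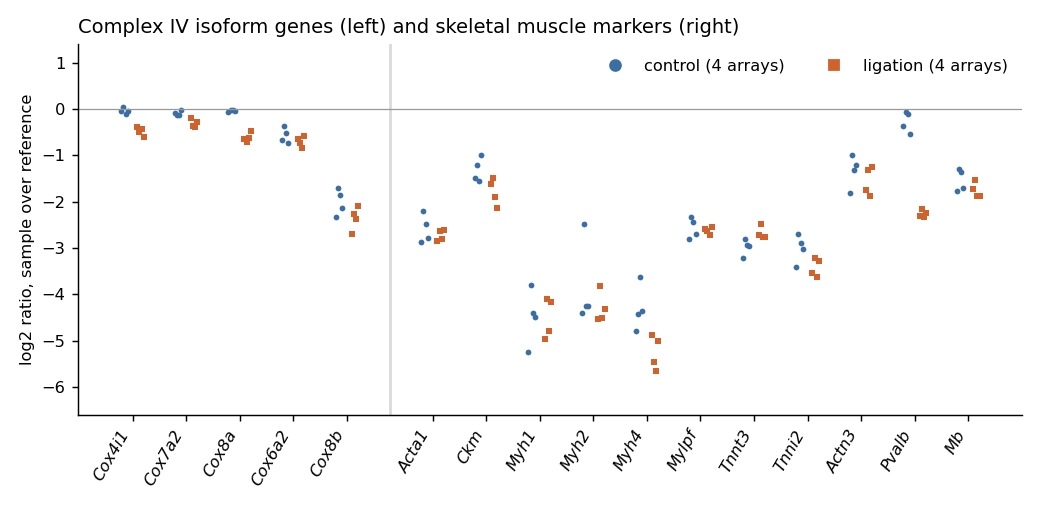
Log2 ratio of sample over reference on each array (blue circles, 4 control arrays, and orange squares, 4 ligation arrays) for 5 complex IV isoform genes on the left and 11 skeletal muscle markers on the right. Cox6a2, Cox8b and the muscle markers lie below 0 on all arrays, Pvalb only slightly so in control, whereas Cox4i1, Cox7a2 and Cox8a lie near 0 in control and lower in ligation.

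ATP synthase, complex V, fell in 11 of 14 tested genes and rose in 1, with a median change of -0.36. In the F1 head, which makes ATP, Atp5a1 (subunit alpha, now Atp5f1a, J05266) went from -0.02, 0.03, 0.01 and -0.02 to -0.63, -0.64, -0.59 and -0.73, a change of -0.65 ± 0.033 (adjusted p = 3.92e-06). The subunits of the central rotor shaft fell with it, Atp5c1 (gamma) by 0.54 and Atp5d (delta) by 0.55 on the log2 scale. Atp5b, the catalytic beta subunit (M19044), lay in the pile-up on 6 arrays, lacked values on 2 control arrays and gave 0.24 and -0.42 in control and -0.05, -0.35, -0.44 and -0.32 in ligation. It did not pass (-0.21, 95% interval -0.74 to 0.33, adjusted p = 0.441), and an interval this wide holds both no change and the fall of the alpha subunit. In the sample channel alone it passed as lower (-0.87, adjusted p = 0.00383). The pile-up in that channel lay lower on the ligation arrays than on control arrays 1 to 3, and its part in this call was not tested.

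The 4 genes of the peripheral stalk, which holds the head still against the rotor, all fell, with a median of -0.34. Atp5o, the subunit that ties the stalk to the head (OSCP), changed by -0.46 ± 0.038 and Atp5h by -0.39 ± 0.05, while Atp5j (-0.29) and Atp5f1 (-0.20, now Atp5pb) changed less. The intensity bin of Atp5f1 had a median change of -0.15. Of the small membrane subunits, which shape the dimer of the enzyme, Atp5j2 changed by -0.24 ± 0.05. Atp5i did not pass (-0.10, adjusted p = 0.398) with 4 arrays in the pile-up. It passed as lower in the sample channel alone (-0.47, adjusted p = 0.00978), where the part of the unequal pile-up heights was not tested. Atp5l passed narrowly on a probe with 4 arrays in the pile-up (-0.32, adjusted p = 0.0398), with ligation arrays from -0.58 to -0.07 that overlapped the control arrays, and its 2 dimmer probes did not pass. Those dimmer probes stood lowest on array 4 of both groups, at -0.86 and -0.69 in control and -1.01 and -0.92 in ligation, and the call of Atp5l was lost without any single one of 7 arrays.

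Subunit c, of which a ring of copies turns in the membrane as protons pass, is coded by 3 genes whose mature proteins are the same, differing in the import peptide that is cut off. These 3 genes did not move together. Atp5g1 (now Atp5mc1, NM_017311) went from -0.07, -0.01, -0.08 and -0.09 to -0.54, -0.58, -0.61 and -0.59, a change of -0.51 ± 0.026 (adjusted p = 4.05e-06). Atp5g3 (now Atp5mc3, g3731063) had -0.00, 0.17, 0.28 and -0.41 in control and -0.76, -0.59, -0.85 and -0.64 in ligation (-0.72 ± 0.151, adjusted p = 0.0045), with 6 arrays in the pile-up and a wide spread in control.

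Atp5g2 (now Atp5mc2, NM_133556) was the 1 subunit gene that rose. It stood at -0.07, -0.07, -0.06 and -0.11 in control and at 0.28, 0.38, 0.37 and 0.27 in ligation, so that every ligation array lay above every control array, as in 28.8% of all genes with 8 values. The change was 0.40 ± 0.032 (adjusted p = 2.8e-05), or 1.32-fold higher. In the sample channel alone, without the reference, it was 0.09 and did not pass (adjusted p = 0.551). Because the 3 genes share coding sequence, their probes may share some signal, and the positions of the probes were not analysed here.

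The start regions of these 3 genes are shown because the genes code for 1 mature protein and moved in opposite directions. Each sequence is the 250 bases before the gene's annotated start in RefSeq on GRCr8, read 5′ to 3′ on the gene's strand. Capitals mark TGCGCA, a palindrome that is a part of the sites bound by NRF-1.
Atp5mc1 (Atp5g1), chr10:81523346-81523595, minus strand: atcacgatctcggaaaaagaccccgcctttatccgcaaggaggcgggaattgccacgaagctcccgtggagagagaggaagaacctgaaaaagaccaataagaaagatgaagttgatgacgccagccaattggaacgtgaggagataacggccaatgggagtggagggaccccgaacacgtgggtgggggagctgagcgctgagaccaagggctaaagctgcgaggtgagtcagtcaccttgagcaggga
Atp5mc2 (Atp5g2), chr7:135678219-135678468, minus strand: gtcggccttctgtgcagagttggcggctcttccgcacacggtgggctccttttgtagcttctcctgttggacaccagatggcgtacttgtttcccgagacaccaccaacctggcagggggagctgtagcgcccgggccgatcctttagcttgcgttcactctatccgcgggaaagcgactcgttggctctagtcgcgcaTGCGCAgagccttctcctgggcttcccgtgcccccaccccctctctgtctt
Atp5mc3 (Atp5g3), chr3:79220665-79220914, minus strand: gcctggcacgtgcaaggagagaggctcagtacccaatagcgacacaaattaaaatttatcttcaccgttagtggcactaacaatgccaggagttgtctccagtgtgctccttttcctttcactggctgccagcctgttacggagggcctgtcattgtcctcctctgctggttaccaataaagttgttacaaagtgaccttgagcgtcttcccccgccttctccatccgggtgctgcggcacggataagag
Atp5mc2 holds 1 match, which begins 51 bases before the start. Atp5mc3, which fell, holds 1 match as well, from base 13 after the start and so outside the bases shown, while none of the 3 motifs searched was found for Atp5mc1. These letters were thus found both for the gene that rose and for 1 that fell. Only they were searched for NRF-1, so the bases beside each match and whole NRF-1 sites were not compared. No match says only that these letters are not in the window searched.

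NRF-1, GABP and YY1 are known as regulators of nuclear genes for respiratory subunits. The partial NRF-1 site TGCGCA, the motif CCGGAAG of ETS factors such as GABP, and the YY1 core AAGATGG were searched on both strands. The windows ran from 250 bases before to 50 after the start, and 64 of the 74 subunit genes matched the RefSeq promoter table. TGCGCA was in 19 of the 64 windows (29.7%), against 9.17% of the 18999 windows of protein-coding genes and 12.8% of the windows of genes on the array. CCGGAAG was in 16 windows, against 11.2% and 16%, and AAGATGG was in 16 windows, against 7.58% and 8.22%. The median change was nearly the same with and without each motif, at -0.46 and -0.44 for TGCGCA, -0.45 and -0.44 for CCGGAAG, and -0.44 and -0.46 for AAGATGG. These matches are letters in a window and not measured sites.

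**Figure D5:**
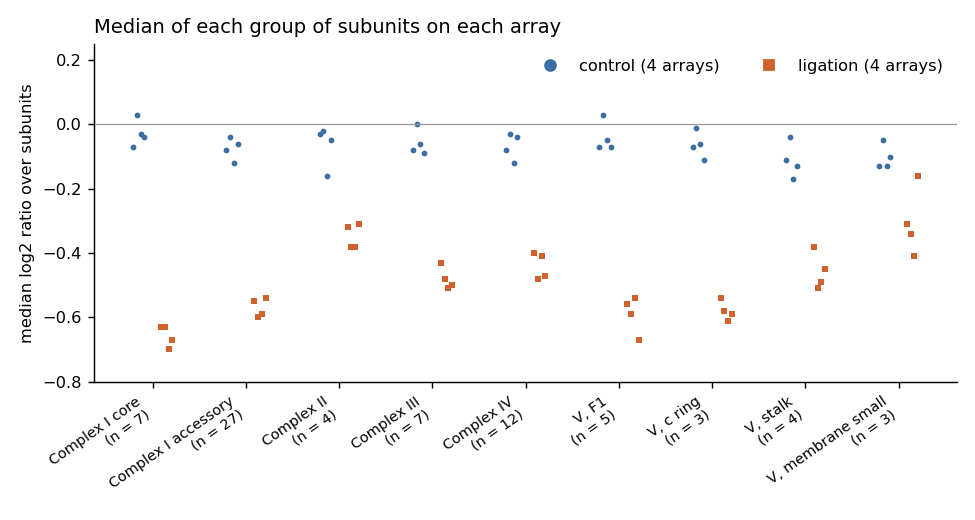
Median log2 ratio of sample over reference over the subunit genes of each complex, or part of a complex, on each array (blue circles, 4 control arrays, and orange squares, 4 ligation arrays; n is the number of genes). Every ligation median lies below every control median in each group. On the ligation arrays the c ring median is the value of Atp5g1, which lies between those of Atp5g2, which rose, and Atp5g3.

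Markers of cell types differed between the groups beside these falls, where 36.0% of all genes fell and 30.2% rose. Of 9 tested neuronal markers 7 fell and 1 rose, with a median of -1.04; Syt1 changed by -1.61 and Tubb3 did not pass (0.01, adjusted p = 0.927). Of 14 macrophage markers 12 rose, with a median of 2.53, and their summed intensity was 8.46 to 9.64 in control and 71.7 to 74.9 in ligation. All 6 fibroblast markers rose, with a median of 1.32. The summed intensity of the 13 neuronal markers on the array, several of which lay in the pile-up, was 36.3 to 107.0 in control and 63.1 to 105.0 in ligation with blank spots left out, and none of them was at 0. The part of these cell types in the falls of the subunit genes was not tested, and in a whole ganglion fewer cells of a type and less RNA per cell cannot be told apart.

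Most genes whose products build the complexes fell too. Of 25 measured assembly factors outside the symbol rule, 19 fell and 2 rose, with a median of -0.35. Over all genes 36.0% fell and 30.2% rose. Atpaf1, which helps to assemble the F1 head, changed by -0.89 (adjusted p = 1.17e-05) and Cox17, the copper chaperone of complex IV, by -0.61 (adjusted p = 2.2e-06). Cox20 and Cox19, also assembly factors of complex IV, rose by 0.46 and 0.25, and Uqcc2 of complex III did not pass (-0.01). Of the assembly factors of complex I taken by the symbol rule, Ndufaf3 fell by 0.28 on the log2 scale and Ndufaf4 did not pass (-0.07, adjusted p = 0.0956).

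Of 15 measured genes of coenzyme Q synthesis and of other entries of electrons, 9 fell and 1 rose, with a median of -0.38. The shares over all genes were 36.0% falling and 30.2% rising. Etfa, a subunit of the flavoprotein that takes electrons from fatty acid oxidation, changed by -0.96 (adjusted p = 2.4e-06), more than any subunit gene, and Coq2, an enzyme of coenzyme Q synthesis, by -0.74 (adjusted p = 3.09e-06). Coq8b rose by 0.18, and Sqor did not pass (-0.03).

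The regulators of mitochondrial biogenesis were mixed, 9 of 16 falling and 4 rising, with a median of -0.17, where 36.0% of all genes fell and 30.2% rose. Nrf1, the gene of NRF-1, changed by -0.76 (adjusted p = 3.65e-06), Esrra, an orphan nuclear receptor, by -0.57, and Ppargc1a, the coactivator of both, by -0.29 on a dim probe (intensity 0.0572). The subunits of GABP rose, Gabpb1 by 0.45 (adjusted p = 1.79e-05) and Gabpa by 0.45, as did Tfam, which packs mitochondrial DNA, by 0.36. The genes of the polymerase of that DNA went both ways on dim probes. Polg2 (intensity 0.133) rose by 1.02, while Polg (intensity 0.122) fell (-0.61, adjusted p = 4.56e-05). Tfb1m (-0.46), Polrmt (-0.35) and Twnk (-0.34) of this list fell too. Ssbp1, which binds single-stranded mitochondrial DNA, did not pass (-0.03).

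Of 16 carriers, pores and controllers of ATP synthase 10 fell and 0 rose, with a median of -0.26. For this list and the next, 36.0% of all genes fell and 30.2% rose, and 45.9% of the brightest 25% fell. Slc25a14, a carrier of the uncoupling protein family, changed by -0.60 (adjusted p = 1.85e-06), and Vdac1, the main pore of the outer membrane, by -0.47 with 4 arrays in the pile-up, while Ucp1 of brown fat did not pass (-0.04). Slc25a4 and Slc25a5, which exchange ATP for ADP, did not pass either (-0.26 and -0.12), with 6 and 4 arrays in the pile-up. Of 11 genes of mitochondrial shape and turnover 7 fell and 0 rose, with a median of -0.27. Bnip3 (-0.84) and Pink1 (-0.43, adjusted p = 9.44e-06), both known for their part in mitophagy, fell, and Bnip3l did not pass (0.01).

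The 4 genes caught by symbol alone are not subunits under their present names. Atp5s (now Dmac2l) and Atp5sl (now Dmac2) fell, by 0.41 and 0.31 on the log2 scale. Cox4nb (now Emc8), of a membrane protein complex of the endoplasmic reticulum, did not pass (-0.02, adjusted p = 0.441), nor did Cox6c1, now listed as a pseudogene of Cox6c (-0.16, adjusted p = 0.608).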

How the data were processed

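Total RNA of each sample, 100 ng, was amplified in 2 rounds before labelling, per the labels' protocols. The submitters' processing notes name Agilent Feature Extraction 8.5.1.1; how background and dyes were corrected is not given in the sources used here. A deposited table holds linear intensities of both channels. A deposited table of log10 ratios matched those intensities within 0.005 for 100% of spots, with a median of 0 on every array. The authors' deposited p-values were not used. The table had 23557 spots of 22491 probes, whose spots were averaged. Probes with values on at least 2 arrays per group were tested (lmFit and eBayes, limma 3.58.1, R 4.3.3), adjusted over all 22379. A pile-up was a window of 0.1 above an intensity of 10 with at least 20 spots. Old symbols were updated for 20 members through RefSeq (GRCr8). Python 3.11.15, pandas 2.3.3, numpy 2.4.6, scipy 1.17.1 and matplotlib 3.10.9 were used, and the fit was tested on simulated data. The number of arrays limits precision.

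The members and lists were chosen with earlier results of these data known. Named were, in each complex, the 3 of smallest adjusted p and the 1 of smallest change; members that rose; tissue isoforms; catalytic subunits; genes whose probes disagreed; and from each other list the 2 of smallest adjusted p and the 1 of smallest change. Single genes that the rule takes but the text does not name are not reported here. Others were named for their function after their values were seen. Alternatives were quantile and loess normalization, the sample channel alone, 0.05 added to both intensities, a filter on dim probes, the mean of a gene's probes, trend and robust variance, the replicate number as a block, and arrays left out. The brightest probe outside the pile-up was added after seeing the data. Markers of heart and slow muscle, adipocytes, testis, satellite glia, Schwann cells and endothelium were counted as well.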

Additional observations from a re-analysis of the deposited data

Results flagged for a closer look

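Of 64 groups of 4 arrays with values tested among the named subunit genes, 4 held an array far from the other 3, by the gap to its nearest neighbour over the range of the group, and chance gives about 1 in 20 groups. Uqcr stood at -0.36 on ligation replicate 1, with the others at -0.46 to -0.44. Uqcrb stood at -0.47 on the same array, with the others at -0.61 to -0.59. Both are small subunits of complex III, and both fell less on that array. Cox4i2 stood at 0.42 on control replicate 2 and at 0.42 on ligation replicate 3, with 0.0 on the others, on a probe at an intensity of 0.0369 where the smallest step of the printed intensity is a large ratio.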

How the results depend on the processing

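Quantile normalization between arrays moved every main result: 11 subunit genes fell and 4 rose (Atp5g2, with Sdhb at 0.22, Cox6a2 at 0.61 and Cox8b at 0.91 changing sign), the median was -0.07, 10 named subunit genes passed in place of 25, 22 genes of the other mitochondrial lists fell in place of 54, and 39 subunit genes differed between control and reference in place of 2. Under it Cox6b1 (0.15), Cox7a2 (0.11), Cycs (0.05) and Ndufb11 (0.14) changed sign and did not pass, while Sdha, Ndufs1, Ndufs3, Ndufs4, Ndufs8, Ndufv1, Ndufv3, Ndufab1, Cox5a, Cox8a and Atp5a1 kept their falls. Loess within arrays gave 58 falling and 2 rising (Atp5g2 and Sdhc) and a median of -0.38, with Ndufb2, Cox5a, Cox6b1 and Atp5l losing their calls. The sample channel alone gave 54 falling, 0 rising and a median of -0.52, with Cyc1, Atp5b and Atp5i gained as lower. These gained genes had arrays in the pile-up, which in that channel lay lower on the ligation arrays than on control arrays 1 to 3. With only probes above the median intensity, or with the replicate block, 1 subunit gene differed between control and reference. Leaving out each array in turn gave 59 to 61 falling and 1 rising, a median of -0.46 to -0.44 and 1 to 3 genes that differed between control and reference. Without ligation arrays 2 and 3, 58 fell. With the brightest probe outside the pile-up, 54 of 63 tested fell. The share of all genes that fell also moved, from 36.0% in the main fit to 17.6% under quantile normalization and 32.5% under loess. It was 26.8% in the sample channel alone and 36.1% with the brightest probe outside the pile-up. Leaving out single arrays gave 33.5% to 35.1%, and leaving out ligation arrays 2 and 3 gave 31.9%.

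The replicate numbers were not taken as a pairing. Arrays with the same number had correlated deviations from their group means (r of 0.106, 0.0737, 0.136 and 0.161 for numbers 1 to 4), each array correlating best with its own number, but number 2 was under 0.1. With the replicate block 61 subunit genes fell, Cox5a being lost, and 12577 probes passed in place of 13105. Of all genes 34.5% fell with the block.

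Blank and piled-up values limit Cyc1, Atp5b, Atp5i, Cox5a, Cox6c and Atp5e, and rounding limits Cyct, Cox4i2, Cox6a2 and Cox8b.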

Other observations

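Other cell type markers were counted in the same fit, in which 36.0% of all genes fell and 30.2% rose. Of 6 Schwann cell markers 3 fell and 1 rose, the median being -0.51, with the myelin gene Mbp (-0.75) falling and the glial transcription factor gene Sox10 (0.45) rising. Of 6 satellite glia markers 1 fell and 2 rose, with a median of 0.05, Fabp7 changing by -1.48. Of 4 endothelial markers 3 rose, with a median of 0.49. Of 5 heart and slow muscle markers 3 fell and 0 rose, of 4 adipocyte markers 1 fell and 0 rose, and of 5 testis markers 1 fell and 1 rose, all of the last at intensities under 0.02.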
